A study of Homo sapiens with 24 samples.

Results

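A set of 10 genes that encode feedback inhibitors of mitogen-activated protein kinase (MAPK) signaling was followed in 24 RNA libraries from a pair of breast cancer cell lines. They were taken from the deposited count table by their symbols: DUSP1, DUSP4, DUSP5, DUSP6, DUSP8, DUSP10, SPRY2, SPRY4, SPRED1 and SPRED2, which are 10 of its 26645 gene entries. All 10 passed the filter on low counts and were tested among 14741 genes. MB468 is the triple-negative line MDA-MB-468, which cannot proliferate when methionine (Met) is replaced by its precursor homocysteine (Hcy). MB468res-R8 is 1 revertant clone of it, obtained by prolonged culture in Hcy medium, that proliferates without Met, so differences between the lines are differences from a single clone. Both lines were kept in medium with dialyzed serum, vitamin B12, glutamine, cysteine and 100 µM Met (Met+), were collected there at 0 h, and were collected again 0.5, 2 and 12 h after a switch to medium without Met that held 370 µM DL-Hcy (Met-Hcy+). Each of the 8 groups has 3 libraries. No library comes from cells switched to fresh Met+ medium, so the change of medium, the time in culture and the loss of Met cannot be told apart within a line.

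MAPKs are switched on by phosphorylation of a threonine and a tyrosine in their activation loop, and the dual-specificity phosphatases (DUSPs) remove both phosphates. DUSP1, DUSP4 and DUSP5 work in the nucleus and DUSP6 in the cytoplasm; DUSP5 and DUSP6 are selective for ERK, whereas DUSP8 and DUSP10 act mainly on the stress kinases JNK and p38. Several of these genes are themselves transcribed within minutes of MAPK activation, which closes a negative feedback loop and makes their mRNA a common transcriptional readout of the pathway. Sprouty proteins (SPRY2, SPRY4) are induced by growth factors and dampen the signal between receptor tyrosine kinases and RAF, and the SPRED proteins bring neurofibromin to the membrane, where it turns RAS off. The epidermal growth factor receptor, which is amplified in MDA-MB-468, is one such receptor. Kinase phosphorylation was not measured in these libraries, so the values below are amounts of mRNA.

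Of the 8 members with an entry, DUSP1 and DUSP8 had a complete cyclic AMP response element (CRE, TGACGTCA) in their upstream DNA. Their sequences are shown because both genes rose within 0.5 h in both lines. DUSP10, which also rose, is shown as a contrast without one, for 1 of its annotated starts. DUSP4, DUSP5 and DUSP6 were also called higher at 0.5 h in both lines, and a link between motif and rise was not tested. The 250 bases before the annotated start (RefSeq, GRCh38.p14, minus strand for all 3 genes) are printed 5′ to 3′ with CRE and short CRE core (TGACG) matches on either strand in capitals.
DUSP1, chr5:172771196-172771445: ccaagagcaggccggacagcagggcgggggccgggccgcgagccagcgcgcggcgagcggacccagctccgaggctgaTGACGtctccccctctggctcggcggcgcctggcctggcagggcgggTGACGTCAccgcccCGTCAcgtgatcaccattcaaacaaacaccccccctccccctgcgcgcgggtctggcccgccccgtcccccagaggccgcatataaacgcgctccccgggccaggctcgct
DUSP8, chr11:1572272-1572521: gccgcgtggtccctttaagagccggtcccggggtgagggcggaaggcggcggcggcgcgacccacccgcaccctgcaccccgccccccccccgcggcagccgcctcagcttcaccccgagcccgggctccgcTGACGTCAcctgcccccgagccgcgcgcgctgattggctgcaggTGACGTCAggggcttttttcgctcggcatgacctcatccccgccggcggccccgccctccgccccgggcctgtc
DUSP10, chr1:221742090-221742339: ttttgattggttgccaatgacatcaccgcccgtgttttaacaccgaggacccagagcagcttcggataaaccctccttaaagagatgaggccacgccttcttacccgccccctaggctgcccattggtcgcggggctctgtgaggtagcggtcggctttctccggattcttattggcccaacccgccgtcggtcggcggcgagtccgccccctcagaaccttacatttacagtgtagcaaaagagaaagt
The CRE lies 125 to 118 bases before the start of DUSP1, and DUSP8 has a pair, at 118 to 111 and at 74 to 67 bases. Such a CRE occurs in 1.65% of the 35116 RefSeq windows searched. The short core, which lies inside every CRE, was also found in SPRY2 and SPRY4 and occurs in 21.2% of windows. No match to an AP-1 site (TGANTCA, in 6.57% of windows), an ETS site (CCGGAAG, 8.52%) or a CArG box (1.16%) was found in the 12 windows of the 8 members that have an entry. DUSP6, DUSP10, SPRED1 and SPRED2 had no match to any of the 5 motifs; DUSP4 and DUSP5 are named only. A match is a run of letters, not a measured binding site.

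Total gene counts ranged from 11713037 to 36402932 per library, with a median of 20452797. Epithelial and basal markers were expressed in every library: the lowest values were 6506 normalized counts for EPCAM, 22869 for KRT8, 35028 for KRT5 and 47813 for EGFR. Basal KRT14 was the lowest of these markers, at 1587 to 5865. The progesterone receptor PGR did not exceed 2.24, while ESR1 (94.5 to 513) and ERBB2 (872 to 2214) were detected. Of the fibroblast, leukocyte and endothelial markers, COL1A2, DCN, CD3E and PTPRC stayed at or below 4.53 and PDGFRB at or below 14.9 in every library, PECAM1 (7.82 to 60.8), CDH5 (up to 61.3) and VWF (up to 35.6) were low, and COL1A1 (331 to 1665) and CD14 (483 to 3620) were present. MB468 at 2 h replicate 2 stood apart: 5 RNAs without a poly(A) tail summed to 1693 CPM (counts scaled to library size) there and to at most 31.6 in the other 23 libraries. Without that library 7 rather than 8 members differed from 0 h in MB468 at 2 h, SPRY4 being lost (0.32, edgeR adjusted p = 0.0941). The number of members whose 2 h response differed between the lines stayed at 5. The shares of all genes, 16.3% and 5.07%, were taken with all 24 libraries and not without that one. Normalized counts are counts per TMM-scaled library on a common scale, means are ± SD (n = 3), values by library are given in the order of replicates 1, 2 and 3, and log2 fold changes are ± SE. The edgeR adjusted p is the Benjamini-Hochberg adjusted p of edgeR's quasi-likelihood test over all tested genes, and a gene is said to have risen, fallen or differed when it is under 0.05. In bulk RNA a change in the share of cells that express a gene and a change per cell cannot be told apart.

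**Figure D1:**
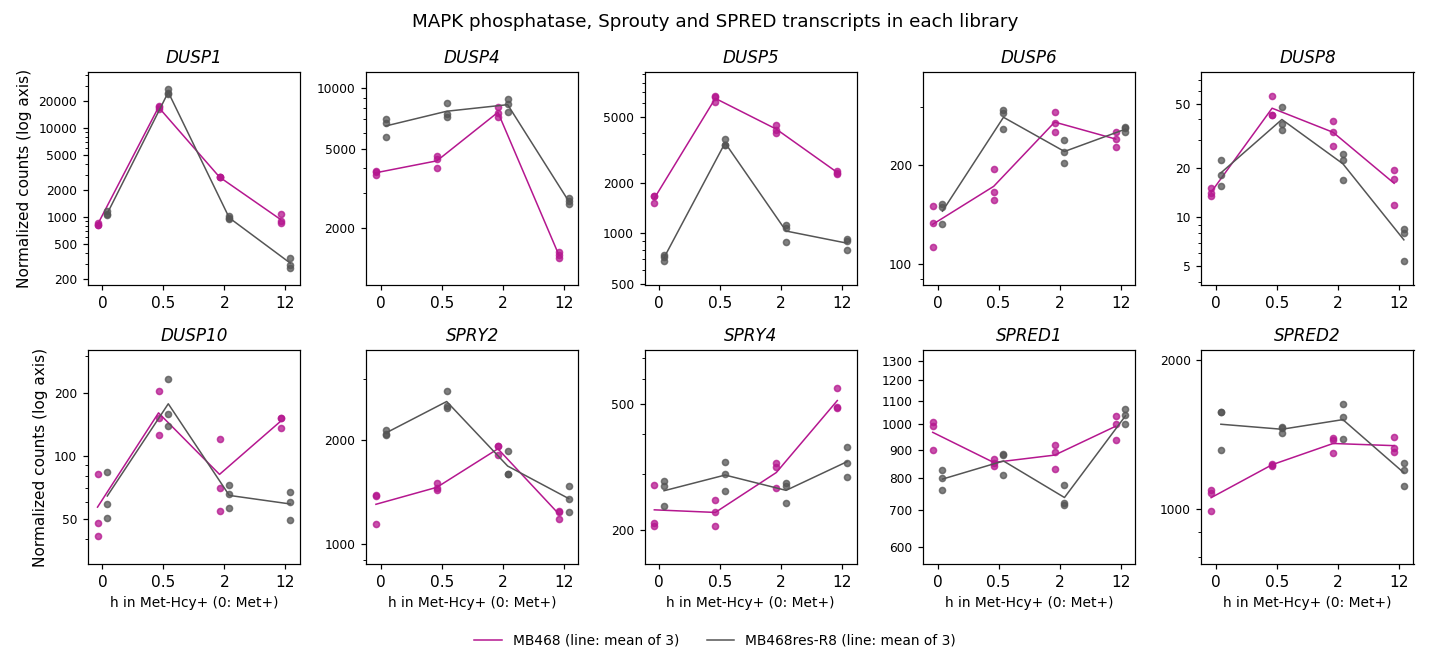
Normalized counts (log axis) of the 10 genes in each of the 24 libraries against hours in Met-Hcy+ medium (0 h is Met+ medium, time points evenly spaced), with points for libraries and lines through the means of 3 in MB468 (magenta) and MB468res-R8 (gray). DUSP1 peaks at 0.5 h in both lines, between 16630.3 and 27318 normalized counts, and at 2 h it lies near 2825 in MB468 and near 983 in MB468res-R8.

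Per length, DUSP4, DUSP1, SPRY2 and, in MB468, DUSP5 were the most abundant members in Met+ medium. In MB468 at 0 h the mean RPKM (reads scaled to exon length and library size) was 28.1 ± 1.54 for DUSP5, 22.9 ± 0.608 for DUSP4, 18.0 ± 0.574 for DUSP1 and 17.8 ± 1.87 for SPRY2. The last pair did not differ beyond their spread. SPRED2 (8.42 ± 0.425) and SPRED1 (5.48 ± 0.338) followed, SPRY4 (1.55 ± 0.270) and DUSP6 (1.50 ± 0.213) were within each other's spread, and DUSP10 (0.884 ± 0.336) and DUSP8 (0.127 ± 0.00777) were lowest. In MB468res-R8 at 0 h the highest means were DUSP4 (39.2 ± 4.15), SPRY2 (28.6 ± 0.438), DUSP1 (24.1 ± 1.50) and DUSP5 (12.4 ± 0.530). At 0.5 h DUSP1 reached a mean RPKM of 376 ± 13.9 in MB468 and 555 ± 37.1 in MB468res-R8, above every other member.

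DUSP1, which dephosphorylates p38 and JNK as well as ERK, gave the largest response of the family, a steep rise within 0.5 h in both lines that lasted longer in MB468. In MB468 its normalized counts were 811, 809.6 and 856 at 0 h and 16630.3, 17187 and 17898 at 0.5 h. In MB468res-R8 they were 1081, 1046 and 1178 and 27318, 24895 and 24048. All libraries at 0.5 h were above all libraries at 0 h. The rise was 20.9-fold in MB468 (log2 4.39 ± 0.074, edgeR adjusted p = 5.81e-25) and 23.1-fold in MB468res-R8 (log2 4.53 ± 0.073, edgeR adjusted p = 2.85e-25), which rank 4 and 6 from the top among 14741 genes. The response itself did not differ detectably between the lines at 0.5 h (log2 0.14 ± 0.098, edgeR adjusted p = 0.591, 95% interval -0.057 to 0.35).

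At 2 h the lines had parted. DUSP1 was at 2816, 2827 and 2832 normalized counts in MB468, still 3.43-fold above 0 h (log2 1.78 ± 0.074, edgeR adjusted p = 6.91e-16). In MB468res-R8 it was at 949, 1030.2 and 969, just below its 0 h libraries, a difference that missed the threshold (log2 -0.16 ± 0.076, edgeR adjusted p = 0.362). The fall from 0.5 h to 2 h was 6.10-fold in MB468 and 25.8-fold in MB468res-R8. At 12 h the MB468 libraries held 1076, 901 and 855, overlapping those at 0 h. The MB468res-R8 libraries held 269, 352 and 293, all below 0 h. That fall was 3.64-fold (log2 -1.86 ± 0.089, edgeR adjusted p = 1.11e-15), whereas the rise called in MB468 (log2 0.20 ± 0.076, edgeR adjusted p = 0.0203) turned to -0.040 with spike-in totals as library sizes and missed the threshold without 0 h replicate 1 (adjusted p = 0.0705), 0 h replicate 2 (0.077) or 12 h replicate 1 (0.297, log2 0.081).

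DUSP5, the nuclear ERK phosphatase, had the second largest rise at 0.5 h, from a level that was lower in MB468res-R8 throughout. Its normalized counts in MB468 were 1521, 1665 and 1684 at 0 h, 6620.2, 6087 and 6593 at 0.5 h, 3999.9, 4461 and 4167 at 2 h and 2362, 2303 and 2284 at 12 h. In MB468res-R8 they were 744, 683 and 722, then 3677, 3368 and 3404, then 1123, 1084 and 893, and 799, 927 and 896 at 12 h. At each time every MB468res-R8 library was below every MB468 library. The early rise was 3.97-fold in MB468 (log2 1.99 ± 0.059, edgeR adjusted p = 1.5e-24) and 4.86-fold in MB468res-R8 (log2 2.28 ± 0.065, edgeR adjusted p = 5.17e-25). By 2 h MB468 still held a 2.59-fold rise and MB468res-R8 a 1.45-fold one, and at 12 h both lines remained above their own 0 h level, by 1.43-fold and 1.21-fold. With spike-in totals the 12 h rise in MB468 missed the threshold (log2 0.28, adjusted p = 0.054).

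DUSP4, the other nuclear phosphatase, was above 0 h at 2 h and below every earlier library at 12 h in both lines. In MB468 it rose from 3870.0, 3802 and 3672 normalized counts at 0 h to 7549.9, 7182 and 8043 at 2 h, with no overlap, and dropped to 1463, 1512 and 1412 at 12 h. In MB468res-R8 it started higher, at 7021, 6721 and 5710.0, reached 8383, 8836 and 7656 at 2 h and dropped to 2715, 2635 and 2823. The 2 h rise was 2.01-fold in MB468 (log2 1.01 ± 0.073, edgeR adjusted p = 1.09e-09) and 1.28-fold in MB468res-R8 (log2 0.35 ± 0.071, edgeR adjusted p = 0.00317), and the fall from 0 h to 12 h was 2.59-fold (log2 -1.37 ± 0.077, edgeR adjusted p = 5.12e-13) and 2.38-fold (log2 -1.25 ± 0.074, edgeR adjusted p = 2.95e-12). At 0.5 h the changes were small in both lines, with 4579.8, 4013 and 4423 normalized counts in MB468 and 8436, 7210.1 and 7414 in MB468res-R8, the latter overlapping the 2 h libraries (2 h minus 0.5 h, log2 0.11 ± 0.071, edgeR adjusted p = 0.256). In MB468 (log2 0.20 ± 0.074, edgeR adjusted p = 0.0435) the call was lost without any of the 6 libraries except 0.5 h replicate 2, with adjusted p up to 0.238, and the value turned to -0.018 with spike-in totals. In MB468res-R8 (log2 0.24 ± 0.071, edgeR adjusted p = 0.0104) it was lost without 0.5 h replicate 1 (adjusted p = 0.0696) or 0 h replicate 3 (0.0513). With spike-in totals neither MB468res-R8 rise was called (0.31 at 0.5 h, adjusted p = 0.101, and 0.32 at 2 h, adjusted p = 0.509).

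DUSP6, the cytoplasmic ERK phosphatase and a standard marker of ERK output, rose in both lines and stayed up, with the larger 0.5 h value in MB468res-R8. Its normalized counts in MB468 were 133, 149.8 and 112 at 0 h, 165, 156 and 194 at 0.5 h, 269, 289.5 and 252 at 2 h and 226, 241 and 252 at 12 h. In MB468res-R8 the same times gave 149, 152 and 132, then 257, 293 and 287, then 203, 237 and 219, and 251, 261 and 259. Unlike DUSP1, DUSP6 was above 0 h at 12 h in both lines, by 1.79-fold in MB468 (log2 0.84 ± 0.11, edgeR adjusted p = 6.08e-09) and 1.77-fold in MB468res-R8 (log2 0.82 ± 0.11, edgeR adjusted p = 2.17e-08). At 0.5 h it had risen 1.92-fold in MB468res-R8 (log2 0.94 ± 0.11, edgeR adjusted p = 3.24e-09) and 1.27-fold in MB468 (log2 0.35 ± 0.12, edgeR adjusted p = 0.0181), the latter call being lost without 0.5 h replicate 3 (adjusted p = 0.0987), 0 h replicate 1 (0.0531) or 0 h replicate 3 (0.125). From 0.5 h to 2 h it rose again in MB468 (log2 0.66 ± 0.11, edgeR adjusted p = 7.48e-06) and fell in MB468res-R8 (log2 -0.34 ± 0.10, edgeR adjusted p = 0.0098), a fall lost without 0.5 h replicate 2 (adjusted p = 0.0509) or 2 h replicate 1 (0.0646). With spike-in totals the 0.5 h rise in MB468 (0.15, adjusted p = 0.559) and the fall in MB468res-R8 (-0.42, adjusted p = 0.0616) were not called.

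The phosphatases for the stress kinases were low, and both rose at 0.5 h in both lines. DUSP10, which acts on JNK and p38, had 47.6, 41.4 and 81.5 normalized counts in MB468 at 0 h and 152, 125 and 204 at 0.5 h, a 2.88-fold rise (log2 1.53 ± 0.27, edgeR adjusted p = 9.65e-05). MB468res-R8 gave 58.7, 50.3 and 83.7 and 234, 139 and 158, a 2.82-fold rise (log2 1.50 ± 0.26, edgeR adjusted p = 7.77e-05). The groups did not overlap in either line. Between 0.5 h and 2 h DUSP10 fell in MB468res-R8 (log2 -1.46 ± 0.26, edgeR adjusted p = 8.42e-05) and in MB468 (log2 -0.91 ± 0.27, edgeR adjusted p = 0.0113), where the call was lost without 0.5 h replicate 3 (adjusted p = 0.0527), 2 h replicate 1 (0.0678) or 2 h replicate 2 (0.0546). At 12 h DUSP10 was high again in MB468, at 151, 151 and 136, and at 67.1, 60.4 and 49.1 in MB468res-R8. The rise from 0 h to 12 h was 2.67-fold in MB468 (log2 1.42 ± 0.26, edgeR adjusted p = 5.05e-05), and the MB468res-R8 value was -0.11 with an interval of -0.71 to 0.50. The second rise in MB468, from 2 h to 12 h (log2 0.80 ± 0.26, edgeR adjusted p = 0.00952), missed the threshold without 2 h replicate 1 (adjusted p = 0.0579). The MB468 libraries at 2 h, at 69.8, 54.4 and 120.2, overlapped those at 0 h (log2 0.62 ± 0.30, edgeR adjusted p = 0.181), and without 0 h replicate 3 the difference was called (log2 0.91, adjusted p = 0.0354).

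DUSP8, likewise a phosphatase of JNK and p38, was the scarcest member. Its normalized counts in MB468 went from 15.3, 13.5 and 14.1 at 0 h to 42.4, 42.5 and 55.8 at 0.5 h, and in MB468res-R8 from 18.2, 22.4 and 15.7 to 48.0, 37.5 and 34.4. These rises of 3.20-fold (log2 1.68 ± 0.29, edgeR adjusted p = 8.19e-06) and 2.13-fold (log2 1.09 ± 0.28, edgeR adjusted p = 0.00175) separated the groups completely. At 2 h DUSP8 was still raised in MB468 (log2 1.20 ± 0.30, edgeR adjusted p = 0.00386; 0.78 and adjusted p = 0.0613 with spike-in totals), and in MB468res-R8 the value was 0.20 with an interval of -0.40 to 0.79. At 12 h the MB468res-R8 libraries held 6, 7 and 9 reads, or 5.36, 7.97 and 8.50 normalized counts, 2.58-fold below 0 h (log2 -1.37 ± 0.35, edgeR adjusted p = 0.000847), so that this value rests on few reads. In MB468 at 12 h DUSP8 was at 17.1, 11.9 and 19.6, overlapping 0 h. The fall in MB468res-R8 from 0.5 h to 2 h (log2 -0.90 ± 0.27, edgeR adjusted p = 0.00786) was lost without 0.5 h replicate 1 (adjusted p = 0.0735) or 2 h replicate 1 (0.0532).

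SPRY2 moved in opposite directions in the lines at 2 h. Normalized counts in MB468 were 1392, 1375 and 1147 at 0 h and 1811, 1926 and 1919 at 2 h. In MB468res-R8 they were 2073, 2076 and 2130.0 and 1591, 1595 and 1859. Neither pair of groups overlapped, with a 1.43-fold rise in MB468 (log2 0.52 ± 0.066, edgeR adjusted p = 1.86e-07) and a 1.25-fold fall in MB468res-R8 (log2 -0.32 ± 0.063, edgeR adjusted p = 0.000838); with spike-in totals the values were 0.11 and -0.37, and neither was called. At 0.5 h SPRY2 had risen in MB468res-R8, to 2773, 2467 and 2502 (log2 0.31 ± 0.062, edgeR adjusted p = 0.000145), while MB468 held 1498, 1431 and 1452 (log2 0.16 ± 0.066, edgeR adjusted p = 0.0677; called without 0 h replicate 1, adjusted p = 0.0413). By 12 h it had fallen to 1237, 1475 and 1354 in MB468res-R8 (log2 -0.63 ± 0.064, edgeR adjusted p = 1.6e-10). The MB468 libraries held 1236, 1249 and 1182 at 12 h (log2 -0.10 ± 0.065, edgeR adjusted p = 0.149; called with spike-in totals, log2 -0.33, adjusted p = 0.0231, and without 0 h replicate 3, log2 -0.21, adjusted p = 0.00448).

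SPRY4, the other Sprouty member, responded late, and more in MB468. It had 210.0, 277 and 205 normalized counts in MB468 at 0 h, 227, 205 and 248 at 0.5 h, 269.9, 324 and 314 at 2 h and 484, 489.7 and 561 at 12 h. The MB468res-R8 libraries held 237, 284 and 275, then 299, 265 and 328, then 280.4, 275 and 243, and 294, 366 and 324 at 12 h. All MB468 libraries at 12 h were above every other library of either line. The 12 h rise was 2.20-fold in MB468 (log2 1.14 ± 0.11, edgeR adjusted p = 1.9e-12) and 1.24-fold in MB468res-R8 (log2 0.31 ± 0.11, edgeR adjusted p = 0.0146), where it was lost with spike-in totals (adjusted p = 0.0741) and without 0 h replicate 1 (adjusted p = 0.0866) or 12 h replicate 2 (0.109). The rise called in MB468 at 2 h (log2 0.37 ± 0.12, edgeR adjusted p = 0.0215) overlapped 0 h, turned to -0.039 with spike-in totals, and was lost without 0 h replicate 1 (adjusted p = 0.134), 0 h replicate 3 (0.116), 2 h replicate 2 (0.0941) or 2 h replicate 3 (0.0987). From 2 h to 12 h it rose in MB468 (log2 0.76 ± 0.11, edgeR adjusted p = 5.17e-08) and in MB468res-R8 (log2 0.29 ± 0.11, edgeR adjusted p = 0.0203), the latter being lost without 12 h replicate 2 (adjusted p = 0.136) or 2 h replicate 3 (0.0583).

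The SPRED genes varied least. SPRED1 group means lay between 738 and 1035 normalized counts, and the largest change was the rise in MB468res-R8 from 778, 714 and 721 at 2 h to 1001, 1039 and 1064 at 12 h (log2 0.49 ± 0.061, edgeR adjusted p = 5.18e-09). Against 0 h, SPRED1 had risen 1.30-fold at 12 h in MB468res-R8 (log2 0.38 ± 0.061, edgeR adjusted p = 1.06e-06) and was at 0.035 in MB468 (interval -0.085 to 0.15). Its fall in MB468 at 0.5 h (log2 -0.18 ± 0.062, edgeR adjusted p = 0.0217) was lost without 0.5 h replicate 2 (adjusted p = 0.0545), 0 h replicate 2 (0.111) or 0 h replicate 3 (0.0513), and its rise in MB468 from 2 h to 12 h (log2 0.17 ± 0.062, edgeR adjusted p = 0.0125) without 12 h replicate 2 (0.0702) or 2 h replicate 1 (0.0979).

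SPRED2, which binds the same partner, moved in opposite directions at 12 h. In MB468 it went from 1092, 994 and 1078 normalized counts at 0 h to 1327, 1304 and 1395 at 12 h, and in MB468res-R8 from 1566, 1565 and 1314 to 1199, 1111 and 1239. The groups did not overlap in either line. SPRED2 rose 1.28-fold in MB468 (log2 0.35 ± 0.060, edgeR adjusted p = 1.86e-06) and fell 1.25-fold in MB468res-R8 (log2 -0.33 ± 0.060, edgeR adjusted p = 9.39e-06), and neither was called with spike-in totals, which gave 0.11 and -0.30. In MB468 it was already higher at 2 h (log2 0.36 ± 0.063, edgeR adjusted p = 2.66e-05; -0.061 with spike-in totals) and at 0.5 h (log2 0.22 ± 0.062, edgeR adjusted p = 0.00416), the latter being lost with spike-in totals (0.0042) and without 0 h replicate 2 (adjusted p = 0.0629).

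Counted over the family, the early response covered most members in both lines. At 0.5 h 8 of 10 differed from 0 h in MB468, 7 higher and 1 lower, where 33.9% of all genes did (17.6% higher and 16.4% lower). Leaving out MB468 0 h replicate 2 or 0 h replicate 3 left 5 of these calls. Scaled to spike-in totals, 4 were higher and 1 lower, against 3.11% and 19.2% of all genes. In MB468res-R8 7 of 10 were higher and 0 lower, against 33.7% of all genes (17.4% higher and 16.3% lower). With spike-in totals 6 were higher and 0 lower there, against 8.1% and 5.62% of all genes. The members' median (log2 fold change) was 0.28 in MB468 and 0.62 in MB468res-R8, and that of all genes was 0.0072 and -0.0022. DUSP1, DUSP5, DUSP8 and DUSP10 made the rises above 2-fold in each line, with DUSP6 next in MB468res-R8.

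At 2 h the members stood out more in MB468. There 8 were higher and 0 lower, where 16.3% of all genes differed (8.88% higher and 7.47% lower), and the median member was at 0.81. Spike-in totals moved the median of all genes to -0.41, with 1.63% of all genes higher and 62.9% lower. In that scaling 4 members were higher and SPRED1 was lower (-0.56). In MB468res-R8 4 differed (DUSP4, DUSP5 and DUSP6 higher, SPRY2 lower) against 4.37% of all genes (2.52% higher and 1.85% lower), with a median member of 0.036. There spike-in totals left DUSP5 alone called, against 0.78% of all genes higher and 0.441% lower, and the median member was at -0.0082. From 0.5 h to 2 h 7 of 10 differed in MB468 (4 higher and 3 lower), where 32.7% of all genes did (16.3% higher and 16.5% lower). Scaled to spike-in totals, 2 were higher and 3 lower, against 4.59% and 20.5% of all genes. In MB468res-R8 7 differed over that interval, all lower, where 35.3% of all genes did (17.4% higher and 17.9% lower). With spike-in totals 5 were lower and 0 higher there, against 10.4% and 5.73% of all genes.

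At 12 h the counts were no guide to the family, since most genes had changed. In MB468 7 of 10 differed from 0 h (6 higher and 1 lower), against 70.8% of all genes (36.1% higher and 34.7% lower). Scaled to spike-in totals, 3 were higher and 2 lower, against 17.2% and 40.2% of all genes. In MB468res-R8 9 differed (4 higher and 5 lower), against 61.3% (30.2% higher and 31.1% lower). There spike-in totals made 3 higher and 4 lower, against 18.8% and 21.2% of all genes. DUSP4 was the member that fell in both lines, and DUSP5, DUSP6 and SPRY4 rose in both, of which DUSP5 in MB468 and SPRY4 in MB468res-R8 were not called with spike-in totals. From 2 h to 12 h 8 members differed in each line, against 69.7% of all genes in MB468 (34.6% higher and 35.1% lower) and 62.5% in MB468res-R8 (30.7% higher and 31.8% lower). DUSP1, DUSP4, DUSP5, DUSP8 and SPRY2 fell in both. Scaled to spike-in totals, 3 rose and 5 fell in MB468, against 36.9% and 19.5% of all genes. In MB468res-R8 2 rose and 3 fell in that scaling, against 23.5% and 20.7%.

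**Figure D2:**
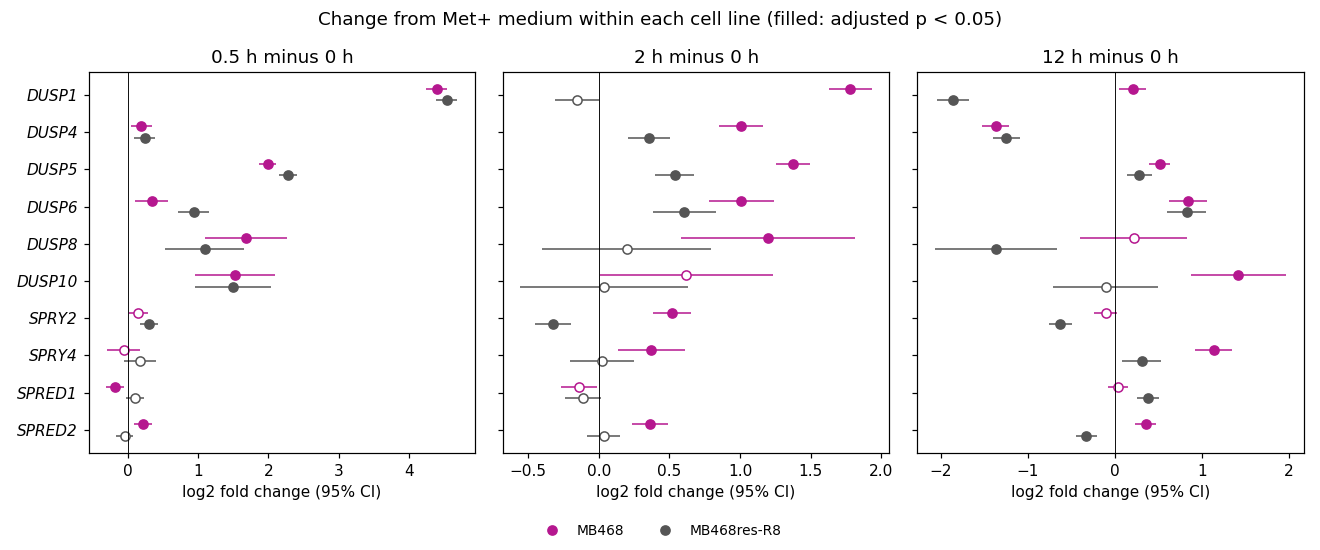
Log2 fold change from 0 h (x axis, points with 95% intervals) of each gene at 0.5, 2 and 12 h in MB468 (magenta) and MB468res-R8 (gray), filled where the adjusted p is under 0.05. DUSP1 lies at 4.39 and 4.53 at 0.5 h, and at 2 h at 1.78 in MB468 and -0.16 in MB468res-R8.

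Whether the lines responded differently was tested by subtracting the log2 fold change in MB468 from that in MB468res-R8. At 0.5 h 1 of 10 members differed, against 2.9% of all genes (1.2% higher and 1.7% lower in MB468res-R8): DUSP6, whose rise was 1.51-fold larger in MB468res-R8 (log2 0.59 ± 0.16, edgeR adjusted p = 0.0279). That call was lost with spike-in totals (0.83, adjusted p = 0.0758) and without MB468 0 h replicate 1 or 2, MB468 0.5 h replicate 1 or 2, MB468res-R8 0 h replicate 3 or 0.5 h replicate 2, with values from 0.49 to 0.60 and adjusted p from 0.0545 to 0.169. Just beyond the threshold were DUSP5 (log2 0.29 ± 0.087, edgeR adjusted p = 0.0638) and SPRED1 (log2 0.29 ± 0.087, edgeR adjusted p = 0.0646), both of which passed it without MB468 0 h replicate 1 (adjusted p = 0.0323 and 0.0264); SPRED1 also passed without MB468res-R8 0.5 h replicate 2 (0.0473) or 0 h replicate 3 (0.0484), as did SPRED2 without the latter (0.0136).

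At 2 h 5 of 10 members differed in response, all lower in MB468res-R8, against 5.07% of all genes (2.19% higher and 2.88% lower). DUSP1 differed most, 3.82-fold (log2 -1.94 ± 0.11, edgeR adjusted p = 7.31e-13), and it was the one still called with spike-in totals. In that scaling 5.87% of all genes were higher and 0.441% lower. SPRY2 (log2 -0.84 ± 0.091, edgeR adjusted p = 2.46e-08), DUSP5 (log2 -0.84 ± 0.091, edgeR adjusted p = 2.91e-08) and DUSP4 (log2 -0.65 ± 0.10, edgeR adjusted p = 0.000229) followed; with spike-in totals they were at -0.48, -0.47 and -0.27, while the median of all genes moved to 0.38. SPRED2 (log2 -0.33 ± 0.086, edgeR adjusted p = 0.0137) turned to 0.054 with spike-in totals and was lost without MB468 0 h replicate 2 (adjusted p = 0.0741), MB468res-R8 0 h replicate 1 (0.0717) or replicate 2 (0.054), or MB468res-R8 2 h replicate 3 (0.0632). DUSP8 was not called, and its interval was wide (-1.86 to -0.14).

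At 12 h 8 of 10 differed in response, 7 lower and 1 higher in MB468res-R8, against 56.5% of all genes (26.2% higher and 30.3% lower). Scaled to spike-in totals, 3 were lower and 1 higher, against 11.8% and 27.5% of all genes. DUSP1 again differed most (log2 -2.07 ± 0.12, edgeR adjusted p = 5.83e-14). The stress-kinase phosphatases DUSP8 (log2 -1.58 ± 0.46, edgeR adjusted p = 0.00355) and DUSP10 (log2 -1.52 ± 0.39, edgeR adjusted p = 0.00209) came next. SPRY4 (log2 -0.83 ± 0.15, edgeR adjusted p = 1.34e-05), SPRED2 (log2 -0.68 ± 0.084, edgeR adjusted p = 5.99e-09) and SPRY2 (log2 -0.52 ± 0.091, edgeR adjusted p = 7.09e-06) also had a lower response in MB468res-R8, and SPRED1 a higher one (log2 0.34 ± 0.085, edgeR adjusted p = 0.000654). For DUSP1, DUSP8 and SPRY2 the lower response was a fall in MB468res-R8, beside log2 values of 0.20, 0.21 and -0.10 in MB468. With spike-in totals DUSP8 (-1.31, adjusted p = 0.0581), SPRED2 (-0.41, 0.0686) and SPRY2 (-0.26, 0.262) were not called. DUSP5 (log2 -0.23 ± 0.092, edgeR adjusted p = 0.0291) was at 0.034 with spike-in totals and was lost without MB468 0 h replicate 1 or 3, MB468 12 h replicate 1, MB468res-R8 0 h replicate 1 or 3, or MB468res-R8 12 h replicate 1 or 3, with adjusted p up to 0.277. DUSP4 and DUSP6 gave intervals around 0 (-0.099 to 0.34 and -0.33 to 0.29).

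Some members already differed between the lines in Met+ medium. At 0 h 6 of 10 did, near the share of all genes at 53.5% (26.4% higher and 27.1% lower in MB468res-R8). With spike-in totals 2 members were higher and 2 lower, against 7.76% and 44.1% of all genes. DUSP4 (log2 0.78 ± 0.073, edgeR adjusted p = 7.66e-09), SPRY2 (0.67 ± 0.064, edgeR adjusted p = 4.63e-11), SPRED2 (0.50 ± 0.061, edgeR adjusted p = 3.85e-09) and DUSP1 (0.42 ± 0.077, edgeR adjusted p = 5.72e-05) were higher in MB468res-R8; of these SPRED2 and DUSP1 were not called with spike-in totals, which moved the median of all genes to -0.31. DUSP5 was 2.26-fold lower (log2 -1.17 ± 0.067, edgeR adjusted p = 5.72e-17), and SPRED1 was lower by less (log2 -0.28 ± 0.061, edgeR adjusted p = 0.000178). SPRY4 (log2 0.18 ± 0.11, edgeR adjusted p = 0.192) was called without MB468 0 h replicate 2 (adjusted p = 0.0186).

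At 12 h 8 members differed in level, 2 higher and 6 lower in MB468res-R8, near the share of all genes at 73.1% (33.9% higher and 39.2% lower). With spike-in totals 1 member was higher and 5 lower, against 24.1% and 34.6% of all genes. DUSP1, higher in MB468res-R8 at 0 h, was 3.13-fold lower there at 12 h (log2 -1.65 ± 0.088, edgeR adjusted p = 3.51e-15). DUSP5 (-1.41 ± 0.063, edgeR adjusted p = 1.42e-20), DUSP10 (-1.31 ± 0.26, edgeR adjusted p = 9.79e-05), DUSP8 (-1.19 ± 0.34, edgeR adjusted p = 0.00202) and SPRY4 (-0.65 ± 0.10, edgeR adjusted p = 4.28e-07) were also lower, and DUSP4 was 1.87-fold higher (0.90 ± 0.077, edgeR adjusted p = 7.56e-10). Both remaining calls were small, and neither held with spike-in totals (SPRED2 -0.23, SPRY2 0.11). SPRED2 (log2 -0.18 ± 0.059, edgeR adjusted p = 0.00597) was lost without MB468res-R8 12 h replicate 2 (adjusted p = 0.0564). SPRY2 (log2 0.15 ± 0.065, edgeR adjusted p = 0.0403) was lost without MB468 12 h replicate 1 (0.0518) or 3 (0.122) or MB468res-R8 12 h replicate 2 (0.257), and with the replicate number as a block (0.0525), which leaves 7 members.

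**Figure D3:**
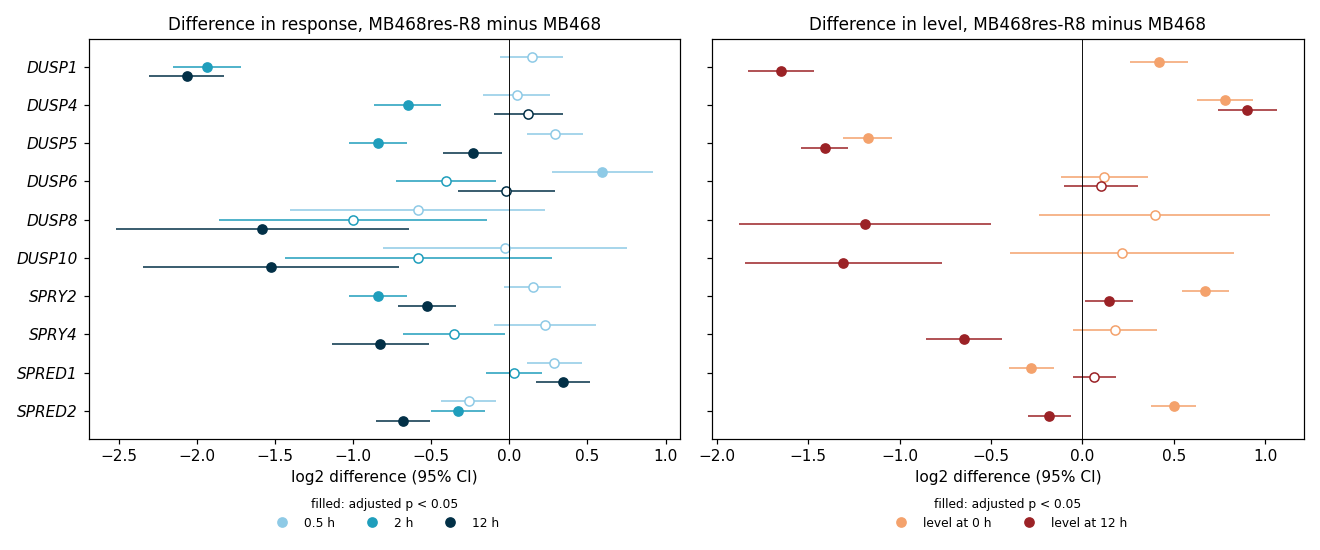
Left, difference between the lines in response from 0 h (log2, MB468res-R8 minus MB468) at 0.5, 2 and 12 h; right, difference in level at 0 h and 12 h; points with 95% intervals, filled where the adjusted p is under 0.05. DUSP1 lies at 0.14 at 0.5 h and at -1.94 and -2.07 later, and SPRED2 at 2 h and DUSP5 at 12 h, both left of 0 here, turn to 0.054 and 0.034 with spike-in totals.

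The same comparisons were made for other genes of the pathway from lists. The immediate early transcription factors, which ERK, JNK and p38 induce without new protein synthesis, rose in both lines at 0.5 h and were lower than at 0 h in MB468res-R8 at 12 h. In MB468 11 of 12 rose and 1 fell at 0.5 h (median log2 2.64), 11 rose at 2 h (1.96), and 6 rose and 4 fell at 12 h (0.17, which turned to -0.086 with spike-in totals). In MB468res-R8 11 rose and 1 fell at 0.5 h (1.95), 5 rose and 3 fell at 2 h (0.16), and all 12 fell at 12 h (-2.18). Of all genes 33.9%, 16.3% and 70.8% were called at those times in MB468 and 33.7%, 4.37% and 61.3% in MB468res-R8, so the count at 12 h in MB468 lies near that of all genes. The median of all genes was between -0.019 and 0.0073 in these 6 comparisons. EGR1, a zinc finger factor induced through ERK, had 942 ± 67.5 normalized counts in MB468 at 0 h and 12802 ± 336 at 2 h (log2 3.76 ± 0.10, edgeR adjusted p = 8.39e-15). In MB468res-R8 it had 979 ± 96.0 and 652 ± 50.6 (log2 -0.57 ± 0.12, edgeR adjusted p = 0.00644), and the difference in response was -4.32 ± 0.15, edgeR adjusted p = 1.13e-12. FOS, a subunit of AP-1, rose 39.0-fold in MB468 and 35.8-fold in MB468res-R8 at 0.5 h and differed in response by -2.16 ± 0.17 (log2) at 2 h. The difference in response was lower in MB468res-R8 for 7 of 12 and higher for 1 at 0.5 h (median -0.62), lower for 11 of 12 at 2 h and lower for 11 of 12 at 12 h, against 1.7%, 2.88% and 30.3% of all genes. Scaled to spike-in totals, 1 was called at 0.5 h, lower, against 0.142% of all genes.

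Among 10 other genes commonly induced by ERK, 8 rose in MB468 at 2 h (median log2 0.63) and 3 in MB468res-R8 (0.10), where 8.88% and 2.52% of all genes did. With spike-in totals the MB468 count was 3 higher and 2 lower (0.21), against 1.63% and 62.9% of all genes. The values of CCND1 and ETV1 turned below 0 there. ERRFI1, an inhibitor of the epidermal growth factor receptor, rose in MB468 (log2 1.06 ± 0.050, edgeR adjusted p = 3.56e-19) and was at 0.010 in MB468res-R8. IER3, an early response gene, rose in MB468 (log2 0.99 ± 0.25, edgeR adjusted p = 0.00383) and fell at 12 h in MB468res-R8 (-1.58 ± 0.29, edgeR adjusted p = 1.25e-05). At 12 h 3 rose and 2 fell in MB468 and 1 rose and 8 fell in MB468res-R8, against 70.8% and 61.3% of all genes called. The difference in response was lower in MB468res-R8 for 5 of 10 at 2 h and 8 of 10 at 12 h, against 2.88% and 30.3% of all genes. Scaled to spike-in totals, 1 was lower and 1 higher at 2 h, against 0.441% and 5.87% of all genes. The median there turned from -0.35 to 0.031. At 12 h 3 were lower in that scaling, against 11.8%. At 0.5 h 3 were higher and 5 lower in MB468, and 3 were higher and 4 lower in MB468res-R8, where 33.9% and 33.7% of all genes were called.

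Of 6 tested relatives of the members, DUSP2, a nuclear inducible phosphatase, rose at 0.5 h in MB468 (log2 1.69 ± 0.14, edgeR adjusted p = 8.88e-13) and in MB468res-R8 (1.32 ± 0.17, edgeR adjusted p = 1.84e-08). DUSP16, a phosphatase of JNK, fell in both lines at 0.5 h (-0.96 ± 0.062, edgeR adjusted p = 2.44e-15 and -1.12 ± 0.058, edgeR adjusted p = 3.05e-18), the opposite direction to DUSP8 and DUSP10, and fell at 12 h in MB468res-R8 (-1.88 ± 0.060, edgeR adjusted p = 1.11e-24). SPRY1 fell at 12 h in MB468res-R8 (-1.30 ± 0.085, edgeR adjusted p = 1.21e-16) and fell farther there than in MB468 (-0.24; difference -1.06 ± 0.12, edgeR adjusted p = 1.13e-09). The medians of the kinases and adaptors stayed near 0: that of the 21 genes of the RAS to ERK cascade was 0.035, -0.0020 and -0.018 at 0.5, 2 and 12 h in MB468 and 0.027, -0.0068 and 0.079 in MB468res-R8. With spike-in totals the MB468 medians were -0.18, -0.42 and -0.25, close to those of all genes in that scaling (-0.20, -0.41 and -0.23). At 2 h 3 of the 21 were called in MB468, against 16.3% of all genes, and 19, all lower, with spike-in totals, which made 62.9% of all genes lower. Single genes of the cascade moved at 12 h, when 15 of 21 were called in each line against 70.8% and 61.3% of all genes. For the 18 tested genes of the JNK and p38 cascade the medians lay between 0.022 and 0.13, and those in MB468 turned negative with spike-in totals (-0.36 at 2 h). Among them GADD45B, a stress-induced activator of the p38 and JNK pathway, rose in MB468 at 12 h (1.97 ± 0.054, edgeR adjusted p = 4.27e-28) and fell in MB468res-R8 (-1.28 ± 0.059, edgeR adjusted p = 1.44e-20).

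**Figure D4:**
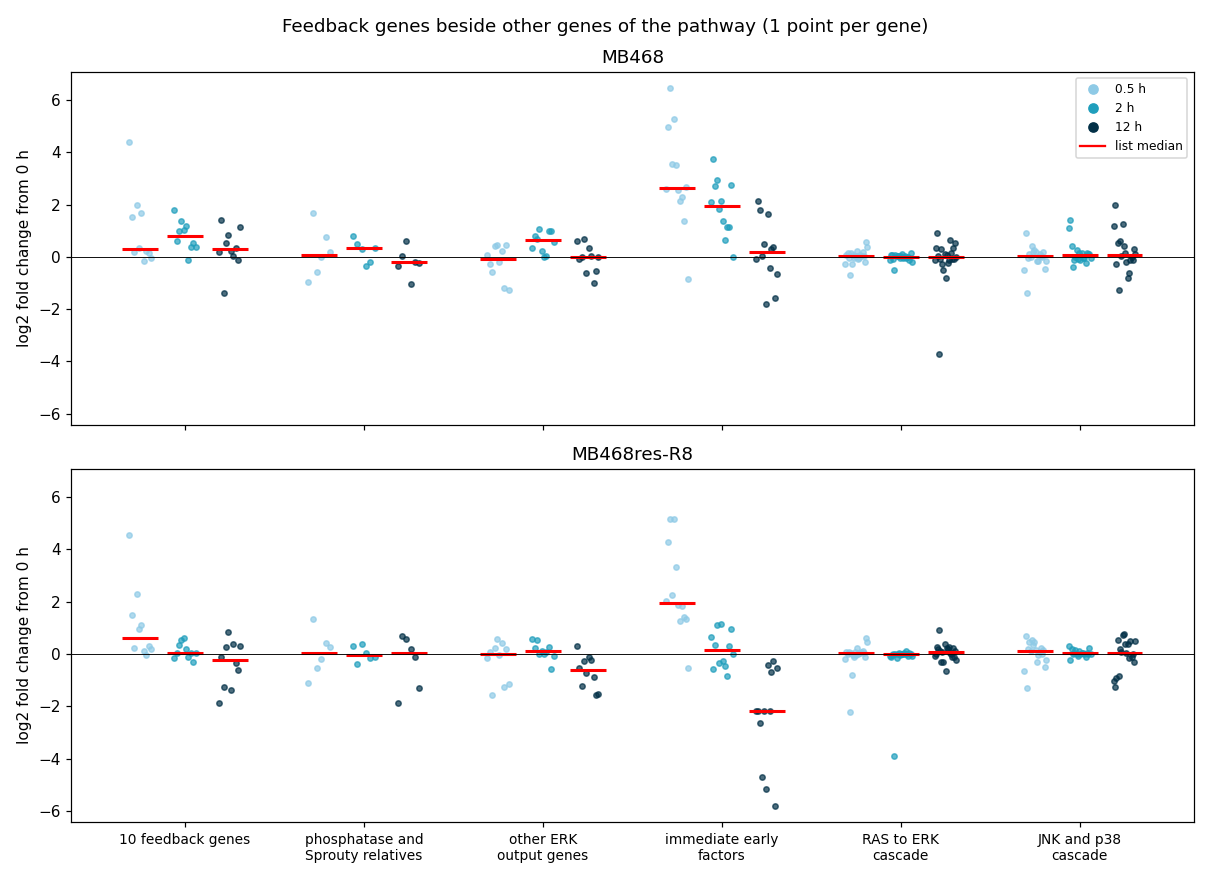
Log2 fold change from 0 h (y axis, 1 point per gene, red bars for list medians) for the 10 feedback genes and 5 lists of other pathway genes at 0.5, 2 and 12 h, MB468 above and MB468res-R8 below. The immediate early factors have medians of 1.96 in MB468 and 0.16 in MB468res-R8 at 2 h. The medians of the cascade lists stay near 0 in this scaling, whereas with spike-in totals they are -0.42 and -0.36 in MB468 at 2 h. Single cascade genes lie far from 0. In MB468 at 12 h the RAS to ERK list runs from -3.72 to 0.91 and the JNK and p38 list from -1.28 to 1.97.

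Over the means of the 8 groups, the genes whose log2 level ran most like that of DUSP1 among 11866 genes were FOS (Pearson r = 0.998), TULP3 (0.976) and JUNB (0.962). For DUSP5 they were CEP57 (0.979), FAM117A (0.976) and PRDM1 (0.965), for DUSP4 TMEM144 (0.965), ITGB3BP (0.962) and RFX1 (0.962), and for DUSP10 GSDMB (0.978), CARD8 (0.975) and SOS1 (0.966). DUSP6 had no gene above 0.949 (MIPOL1, then GNAQ at 0.921 and MND1 at 0.889). The closest to SPRY2 was CTSK (0.975), to SPRY4 COX10 (0.97), to SPRED1 EDRF1 (0.972) and to SPRED2 PKD1L1 (0.979). DUSP8 was too low for this comparison. These are descriptions over 8 points from the same libraries and were chosen as the highest of many.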

How the data were processed

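RNA was measured in 24 libraries of MB468 and MB468res-R8 cells at 4 time points. The authors aligned single-end reads of poly(A) RNA with HISAT2 2.1.0 to GRCh38/hg38 joined with 92 spike-ins, and featureCounts gave the reads per gene (Subread 1.5.3, from the submitters' processing notes); the annotation release and strand setting are not given in the sources used here. The deposited counts were used as they stand. A deposited table of normalized counts without the 0.5 h libraries, and one of the authors' own comparison (log2 fold changes, standard errors, statistics and p-values), were not used.

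The groups, given by the sample titles, were compared in R 4.3.3 with edgeR 4.0.16: filterByExpr (minimum count 10, minimum total 15), TMM factors, and a robust quasi-likelihood model with a mean per group over all 24 libraries, tested on simulated data. Calls were made at a Benjamini-Hochberg adjusted p under 0.05 over 14741 genes. All 10 members were tested in every comparison, though not every value is given in the text. Of the lists up to 4 called genes per comparison could be named, and up to 3 genes by likeness per member (prior count 2, mean log2 CPM of at least 1). The members and lists were chosen with earlier results of these data known. Positions and exon lengths came from GENCODE 44 on hg38; promoter windows on chromosome 8 were not searched. Alternatives were DESeq2 1.42.0 size factors and its Wald test, spike-in totals, no filter, at least 10 counts in every library, only the libraries compared, an adjusted p of 0.01, the replicate number as a block, and leaving out each library. The 24 pairs of replicates differed by more than sampling noise (chi-square per gene 2.22 to 7.72), so none was counted as a repeat of another. Nothing states that replicates are separate cultures, so p-values measure the spread between these libraries. In no comparison did every pair of same-numbered libraries deviate together. In MB468res-R8 at 2 h and 0 h they did on average (mean correlation 0.277, lowest pair -0.0294).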

Additional observations from a re-analysis of the deposited data

Results flagged for a closer look

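The response to Met-Hcy+ medium differed between the lines for 14 values, each by edgeR's quasi-likelihood test of the difference itself (log2, MB468res-R8 minus MB468, adjusted by Benjamini-Hochberg over 14741 genes). At 0.5 h it was higher in MB468res-R8 for DUSP6 (0.59 ± 0.16, edgeR adjusted p = 0.0279). At 2 h it was lower for DUSP1 (-1.94 ± 0.11, edgeR adjusted p = 7.31e-13), DUSP4 (-0.65 ± 0.10, edgeR adjusted p = 0.000229), DUSP5 (-0.84 ± 0.091, edgeR adjusted p = 2.91e-08), SPRY2 (-0.84 ± 0.091, edgeR adjusted p = 2.46e-08) and SPRED2 (-0.33 ± 0.086, edgeR adjusted p = 0.0137). At 12 h it was lower for DUSP1 (-2.07 ± 0.12, edgeR adjusted p = 5.83e-14), DUSP5 (-0.23 ± 0.092, edgeR adjusted p = 0.0291), DUSP8 (-1.58 ± 0.46, edgeR adjusted p = 0.00355), DUSP10 (-1.52 ± 0.39, edgeR adjusted p = 0.00209), SPRY2 (-0.52 ± 0.091, edgeR adjusted p = 7.09e-06), SPRY4 (-0.83 ± 0.15, edgeR adjusted p = 1.34e-05) and SPRED2 (-0.68 ± 0.084, edgeR adjusted p = 5.99e-09), and higher for SPRED1 (0.34 ± 0.085, edgeR adjusted p = 0.000654). The 12 h differences stand among 56.5% of all genes called, the 2 h ones among 5.07%. DUSP1 moved farthest of the members at both times. At 2 h it was 3.43-fold above 0 h in MB468. In MB468res-R8 every library was below 0 h, by a difference that was not called (log2 -0.16, edgeR adjusted p = 0.362). Of these differences, those of DUSP6 at 0.5 h, SPRED2 at 2 h and DUSP5 at 12 h did not hold without single libraries, as given above, and with spike-in totals as library sizes 5 of the 14 were called, DUSP1 at 2 h and DUSP1, DUSP10, SPRY4 and SPRED1 at 12 h. Why the lines differ was not tested.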

How the results depend on the processing

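Of 1185 values of the members over the comparisons and 8 alternatives, 1097 kept their direction and their side of the threshold and 21 that were not called changed sign. The others were calls that changed. Spike-in totals lost 30, gained 2 and turned 6. An adjusted p of 0.01 lost 14, and only the libraries compared lost 4 and gained 1. DESeq2 size factors lost 2, its Wald test lost 1 and gained 2, and the block lost 1. No filter gained 3, and at least 10 counts in every library gained 1. Of 1080 values without 1 library, 978 kept both, 35 that were not called changed sign, 56 lost the call and 11 gained it. Spike-in totals as library sizes changed most, and the cause was not tested. With them 5 members were called in MB468 at 0.5 h and 5 at 2 h, 1 in MB468res-R8 at 2 h and 5 from 2 h to 12 h, and the difference in response was called for 0 at 0.5 h, 1 at 2 h and 4 at 12 h. Of all genes 3.11% were then higher and 19.2% lower in MB468 at 0.5 h, and 1.63% and 62.9% at 2 h. The MB468res-R8 shares were 0.78% and 0.441% at 2 h, and 23.5% and 20.7% from 2 h to 12 h. For the difference in response they were 0.543% and 0.142% at 0.5 h, 5.87% and 0.441% at 2 h, and 27.5% and 11.8% at 12 h. Direction turned, with no call, for DUSP1 in MB468 at 12 h (-0.040), DUSP4 in MB468 at 0.5 h (-0.018), SPRY4 (-0.039) and SPRED2 (-0.061) in MB468 at 2 h, and the difference in response of SPRED2 at 2 h (0.054) and DUSP5 at 12 h (0.034). In that scaling the median of all genes in MB468 lay at -0.20 at 0.5 h, -0.41 at 2 h and -0.23 at 12 h. At an adjusted p of 0.01, which asks more of each gene, 5 members were called in MB468 at 0.5 h and the difference in response at 0.5 h for 0; the latter was called for 2 with at least 10 counts in every library, 3 with DESeq2's Wald test, 2 with no low-count filter and 2 with only the libraries compared. Without single libraries the calls ranged from 5 to 7 in MB468 at 0.5 h and from 0 to 2 for the difference at 0.5 h. The replicate number as a block ended 1 call of a member, SPRY2 between the lines at 12 h (0.15, adjusted p = 0.0525 in edgeR's quasi-likelihood test), leaving 7, and no other. The numbers gave no pairing that held for every same-numbered pair of a comparison. The intervals of DUSP8 and DUSP10 are the widest of the members; DUSP8 had 6 to 57 reads a library and DUSP10 28 to 268. The 3 libraries per group limit every value.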
